A study of Mus musculus with 12 samples.

Results

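Pausing is a reversible arrest in which mouse embryonic stem cells, deprived of mTOR activity, keep their identity while growing and dividing slowly. The baseline described here is the transcriptome of such paused cells carrying a non-targeting guide RNA (NT), in all 4 NT libraries of a series of 12 libraries. The rule that picks these libraries reads their labels and no measured value. The remaining libraries of the series, with guides to Mycn, were not used for any value below.

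The cells were of the E14 line, a male mouse embryonic stem cell line, and the labels give their genotype as WT(dCas_Alkbh5). They expressed a catalytically dead Cas protein fused to Alkbh5, a demethylase of m6A in RNA, and grew on gelatin in medium with FBS and the cytokine LIF. The guide came from the plasmid lenti-sgRNA-BSD, and cells that held it were selected over 3 days with 8 µg/mL blasticidin. INK128, an inhibitor of the mTOR kinase, was then given at 200 nM for 5 days. Polyadenylated RNA from 200000 cells per sample was sequenced after ERCC RNAs, a mix of synthetic transcripts of known amount, had been added. All the cells thus shared the line, the fusion protein, the blasticidin selection and the inhibitor. Several limits follow from the labels: 1 guide and 1 line were used, no library without the inhibitor is among the 4, and reads of the fusion gene cannot be told apart from those of the cell's own Alkbh5. The labels do not say whether the 4 replicates were separate cultures, so the SD below may hold technical variation alone.

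The mTOR kinase senses amino acids, growth factors and energy and acts in the complexes mTORC1 and mTORC2. The former promotes ribosome production, translation and lipid synthesis and restrains autophagy, partly through the 4E-BP repressors of the cap-binding factor eIF4E and through the kinases of ribosomal protein S6. In embryonic stem cells MYC proteins act beside this pathway to drive growth, and LIF keeps the naive state through Stat3 and a set of transcription factors. An RNA level says nothing of translation or of phosphorylation, the steps on which the inhibitor acts directly.

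The NT libraries held 22776016, 21822509, 25069479 and 23003958 reads on endogenous genes. ERCC RNAs took between 1.37% and 1.61% of the reads. Levels are given as TPM, reads per exon length scaled to a fixed sum in each library, computed from the deposited counts and the deposited exon length of each gene, with ERCC RNAs left out. Levels per length depend on the length used. With GENCODE lengths (the mean over principal transcripts or, where none is marked, the longest basic one), an alternative chosen after seeing the data, 28 of 249 named genes moved by over 1.5-fold in TPM, 14 up and 14 down, and where a TPM of theirs is printed the value on that scale follows. A gene was called expressed when it had at least 1 CPM, a read count scaled to the endogenous library total, in each of the 4 libraries. Since RNA was pooled over many cells, fewer cells of a type and less RNA per cell cannot be told apart in these levels.

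Of 24421 genes, 12319 (50.4%) were expressed and 5172 had 0 reads in all 4 libraries. The median level of expressed genes was 24.4 TPM, with 8.32 TPM at the 25th percentile, 61.1 TPM at the 75th and 888 TPM at the 99th. The transcriptome was concentrated in few genes. The 10 highest genes held 10.6% ± 1.11 of all TPM (SD, n = 4), the 100 highest 32.8% ± 0.872 and the 1000 highest 61.5% ± 0.522. Between 420 and 471 genes were enough for 50% of TPM in each library. The 115 genes at 1000 TPM or more, with a median exon length of 894 bases, carried 34.5% of TPM, while the 7129 genes from 10 to 100 TPM carried 27.2%.

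**Figure D1:**
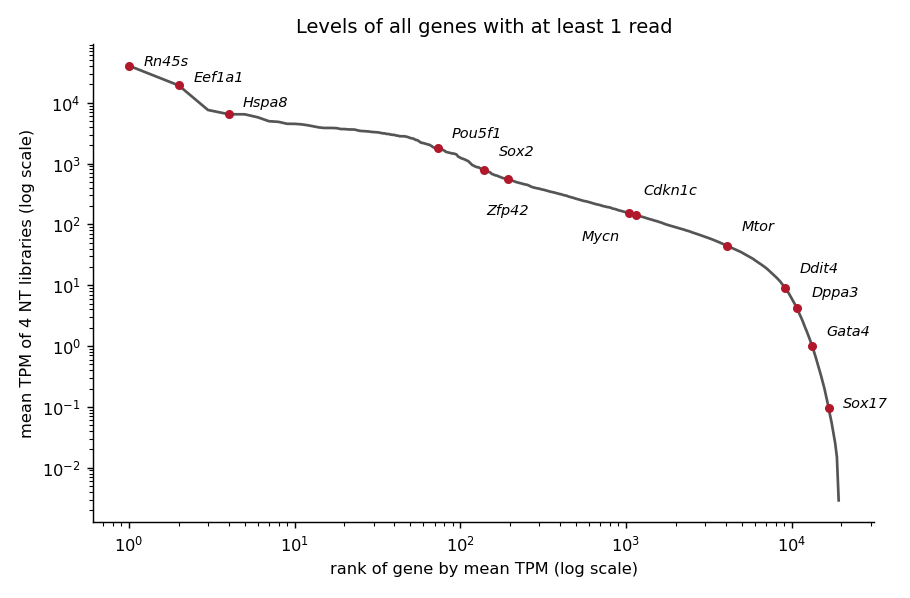
Mean TPM over the 4 NT libraries of every gene with at least 1 read (vertical axis, log scale) against its rank (horizontal axis, log scale), with named genes as points. Rn45s ranked 1 and Pou5f1 ranked 73, while Sox17, a gene of the primitive endoderm, lay at 0.0976 TPM.

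The most abundant entry was Rn45s, the precursor of the ribosomal RNAs, which has no polyA tail of the usual kind. It took 11.7%, 7.00%, 7.73% and 9.74% of endogenous reads in replicates 1 to 4, and lies on chromosome 17 from 39842997 to 39848829 of mm10. Lars2, the mitochondrial leucine transfer RNA synthetase, ranked 6 and took 1.28%, 0.512%, 0.691% and 0.925% of reads. Mir6236, a microRNA entry, took 0.0178%, 0.00797%, 0.0102% and 0.0134%. All 3 entries were highest in replicate 1 and lowest in replicate 2. The Lars2 reads came to 10.9, 7.32, 8.94 and 9.50 per 100 Rn45s reads, a narrower range than that of the Lars2 share alone. Whether part of the Lars2 and Mir6236 reads come from ribosomal RNA was not tested, so their levels are uncertain. Mrgpra6, a receptor gene known from sensory neurons, also stood out at 1596 ± 175 TPM (SD, n = 4), with no exon base shared with another entry of the table. Its level is uncertain, because it rose to 5824 TPM with GENCODE lengths.

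Among protein-coding genes, Eef1a1, the elongation factor that brings transfer RNAs to the ribosome, was highest at 18665, 19916, 18605 and 19845 TPM in replicates 1 to 4. The cytosolic chaperones Hsp90ab1 (7609 ± 358 TPM, SD, n = 4) and Hspa8 (5334, 5381, 7337 and 7879.6 TPM) followed. Hspa8 was higher in replicates 3 and 4 than in replicates 1 and 2, whereas the Eef1a1 values of the same libraries interleaved. Here and below, such a split describes the named gene alone, because the share of all genes split in this way was not computed. Other genes at the top were Ptma, a small acidic chromatin protein, at 6459.8 TPM, Tpt1, a growth-related protein of broad function, at 4976 TPM, Ftl1, the ferritin light chain, at 4087 TPM, Npm1, a nucleolar chaperone, at 3939 TPM, and Actb, beta-actin, at 3696 TPM. Of the 30 highest genes, 18 encode cytosolic ribosomal proteins, 4 chaperones and 1 a translation factor. Of the 100 highest, 66 encode ribosomal proteins. The chaperone list of 23 genes held 3.25% ± 0.180 of TPM (SD, n = 4).

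The cytosolic ribosomal proteins had the largest summed level of the 48 gene lists. Of 82 listed genes, 79 were expressed, and together they held 18.8% ± 0.479 of TPM (SD, n = 4). Their median exon length was 696 bases, and the same genes took 5.65% of reads. Their median level was 2198 TPM, against 24.4 TPM over all expressed genes, with the middle 50% of members between 1534 and 3191 TPM. Large-subunit genes had a median of 2021 TPM and small-subunit genes 2651 TPM. Rplp1, of the stalk that recruits elongation factors, was highest at 4855 ± 206 TPM, and Rps26 at 4516 ± 392 TPM and Rps2 at 4418 ± 273 TPM were also near the top of the list (all SD, n = 4). Rps26 was at 2977 TPM with GENCODE lengths, and Rplp1 stayed above Rps2 (4564 against 4229.8 TPM). The paralogs Rps27l and Rpl22l1 lay below the middle 50% of the list, with Rps27l at 390.5 ± 3.41 TPM and Rpl22l1 at 174 ± 32.5 TPM. Rps27l cannot be ordered against Rps27, which had 123 reads in all and shares exon bases with another entry.

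Ribosomal protein transcripts are known for a pyrimidine tract that begins at their first base, through which mTOR controls their translation. The start sites in RefSeq (build GRCm38.p6) were searched for a C at the first transcribed base followed by at least 4 further C or T bases. Such a run stood exactly at the annotated start in 15 of 72 windows of ribosomal protein genes (20.8%), against 2.34% of all 21800 windows. Allowing the run to begin within 10 bases of the start raised both, to 55.6% and 31.4%. In windows of other genes at 1000 TPM or more, without ribosomal proteins and translation factors, it stood at the start in 0 of 36. So few windows cannot separate this from the 2.34% of all windows, and within 10 bases the share was 33.3%. In windows of the listed translation factors, at any level, the run stood at the start in 2 of 48 (4.17%). A match describes letters at an annotated start and not a start used in these cells. The 30 bases around the start of 6 genes of the ribosomal protein list with such a run, at high levels, are shown. They read 5′ to 3′ on the gene's strand, 15 before the start and 15 from it on, with the pyrimidine run in capitals.
Rpl28: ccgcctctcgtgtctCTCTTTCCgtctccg
Rps18: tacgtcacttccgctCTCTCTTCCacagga
Rpl35: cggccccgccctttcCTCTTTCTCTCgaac
Gnb2l1: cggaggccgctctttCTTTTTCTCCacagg
Rps10: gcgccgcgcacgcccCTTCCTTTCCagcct
Rps6: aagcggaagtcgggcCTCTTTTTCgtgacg

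These windows lie at chr7:4792950-4792979 (plus strand), chr17:33955651-33955680 (minus strand), chr2:39005117-39005146 (minus strand), chr11:48800345-48800374 (plus strand), chr17:27635230-27635259 (minus strand) and chr4:86857353-86857382 (minus strand). Their runs are 8, 9, 11, 10, 10 and 9 bases long. Rpl28 stood at 3628 TPM, Rps18 at 3518 TPM, Rpl35 at 2882 TPM, and Gnb2l1, the ribosomal scaffold protein RACK1, at 2699 TPM. Rps10 stood at 2695 TPM and Rps6, the substrate of the S6 kinases, at 2194 TPM. With GENCODE lengths Rpl28 was at 1921 TPM, Rpl35 at 1380.1 TPM and Rps6 at 3492 TPM.

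**Figure D2:**
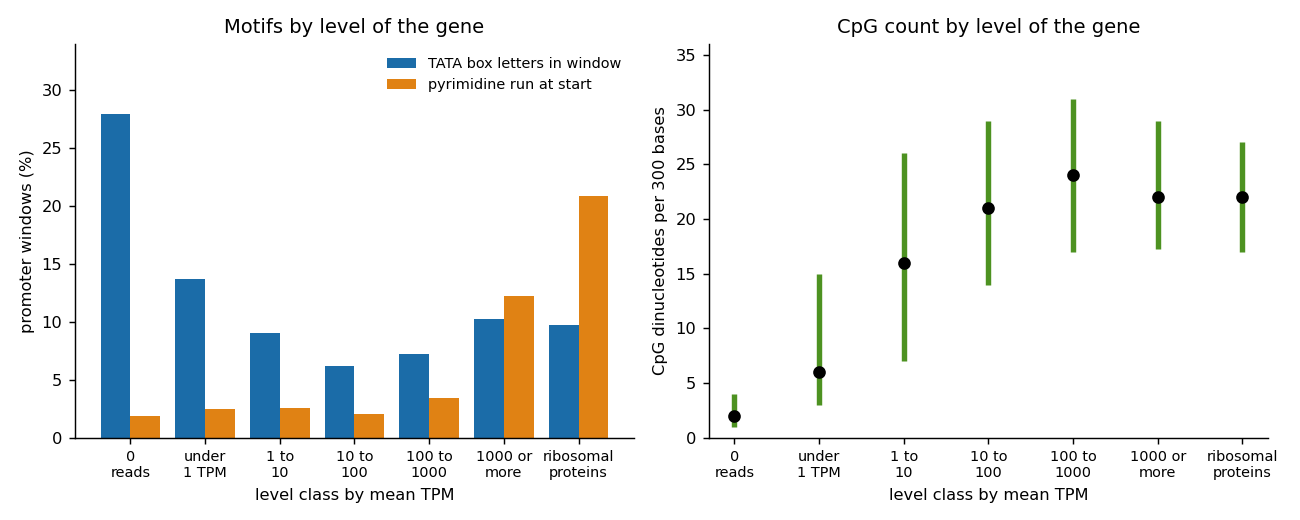
Left, percent of RefSeq promoter windows of 300 bases (vertical axis) that hold the letters of a TATA box on either strand, or a pyrimidine run at the start, by level class of the gene and for ribosomal protein genes; right, CpG dinucleotides per window, with the median as a point and the 25th to 75th percentile as a bar. The median CpG count was 2 for genes at 0 reads and 24 for genes from 100 to 1000 TPM.

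Other letters of the promoter also differed between level classes, though not in a steady course up to the highest class. The motif TATAAA, on either strand of the window from 250 bases before to 50 after the start, was in 28.0% of windows of genes with 0 reads, in 9.02% at 1 to 10 TPM, in 6.20% at 10 to 100 TPM and in 10.2% at 1000 TPM or more. Over all windows it was 12.3%. The median number of CpG dinucleotides per window was 2 for genes at 0 reads, 16 at 1 to 10 TPM, 24 at 100 to 1000 TPM and 22 at 1000 TPM or more. Germline genes had a median of 21 CpG although most of them were below the median level of expressed genes. The windows covered 18081 genes of the table.

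The cells carried the pluripotency profile that their label names. Pou5f1, the transcription factor Oct4 at the centre of the pluripotency network, stood at 1871, 1928, 1798 and 1521 TPM in replicates 1 to 4 and ranked 73 of all genes. Replicate 4 was the lowest for Pou5f1, and the other replicates lay between 1798 TPM and 1928 TPM. Its partner Sox2 stood at 759, 779, 863 and 742 TPM (rank 140), highest in replicate 3. Nanog, which stabilises self-renewal, stood at 567, 601, 545 and 562 TPM (rank 186), and Zfp42, the naive-state marker Rex1, at 576, 547, 588 and 502 TPM (rank 193). In mean level these markers ran from percentile 98.4 (Zfp42) to percentile 99.4 (Pou5f1) of expressed genes.

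All 20 listed core pluripotency genes were expressed, with a median of 256 TPM. Trim28, a corepressor that silences retroviral elements, was at 1268 ± 14.3 TPM, Tdgf1, a Nodal coreceptor, at 1103 ± 53.7 TPM, and L1td1, an RNA-binding protein of pluripotent cells, at 760.0 ± 10.4 TPM (all SD, n = 4). Utf1, a chromatin-bound pluripotency factor, stood at 634 ± 49.8 TPM. Lin28a, which blocks let-7 processing, stood at 366 ± 25.7 TPM and its paralog Lin28b at 16.7 ± 1.87 TPM, a log2 ratio of 4.46 ± 0.20 (SD, n = 4). The de novo DNA methyltransferase Dnmt3b was the most variable of those named, at 68.3, 81.5, 42.9 and 44.3 TPM, with replicates 1 and 2 above replicates 3 and 4.

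Of 22 naive pluripotency genes, 21 were expressed, with a median of 141 TPM. Klf5 stood at 815, 626, 787 and 1029 TPM, and its replicates differed by more than those of Esrrb (469.5, 492, 441 and 486 TPM), an orphan nuclear receptor of the naive network. Zfp57, which protects imprints, stood at 641 ± 41.4 TPM, Dppa5a, an RNA-binding protein, at 690.5, 720.2, 618 and 486 TPM and Tfcp2l1, a naive-state transcription factor, at 297 ± 15.4 TPM (SD, n = 4). Which of these is highest depends on the length: Klf5 led on the deposited lengths, but with GENCODE lengths it was at 419.8 TPM, below Zfp57 (1022 TPM), Dppa5a (651 TPM) and Esrrb (521 TPM). Klf4 at 282 ± 32.4 TPM and Klf2 at 236 ± 20.99 TPM could not be ordered, since Klf4 was higher in 3 of 4 libraries (log2 ratio 0.25 ± 0.28). Prdm14, which represses Fgf signalling and DNA methylation, was lower at 49.8 ± 1.63 TPM. Dppa3, a maternal factor that protects methylation marks in the zygote, was the 1 naive gene not called expressed, at 4.94, 5.70, 3.31 and 2.83 TPM. The call rests on reads, so a short gene needs a higher TPM to pass it. Dppa3 has a deposited exon length of 818 bases and was above 1 TPM in every library.

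The LIF pathway was present throughout. All 9 of its listed genes were expressed, among them the receptor chains Lifr at 82.0 ± 2.83 TPM and Il6st at 79.0 ± 4.68 TPM, the kinase Jak1 at 35.2 ± 3.58 TPM, the effector Stat3 at 110.5 ± 6.00 TPM and the feedback inhibitor Socs3 at 144 ± 17.0 TPM (all SD, n = 4). Jak2 was near the low end at 3.68, 2.95, 4.96 and 5.60 TPM. Lifr was at 148 TPM with GENCODE lengths.

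Members of the miR-290 cluster, a microRNA cluster of naive embryonic stem cells, lie within D7Ertd143e, which was expressed at 63.2, 55.0, 71.8 and 58.6 TPM. The libraries measured the host transcript and not the mature microRNAs. RefSeq places 11 mature sequences inside the host, and 3 of them share the seed AAGUGCU at bases 2 to 8. These are shown 5′ to 3′ with the seed in capitals, because this seed is what the cluster is known for.
mmu-miR-291a-3p: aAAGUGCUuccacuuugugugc
mmu-miR-294-3p: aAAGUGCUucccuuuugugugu
mmu-miR-295-3p: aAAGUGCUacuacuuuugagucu

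In GRCm38.p6 they lie at chr7:3218968-3218989, chr7:3220691-3220712 and chr7:3220815-3220837, all on the plus strand. Mir17hg, the host of the miR-17 to miR-92 cluster, stood at 139, 124, 138 and 96.7 TPM and was thus the higher of the hosts in each library. Its mean was 82.5 TPM with GENCODE lengths, against 62.3 TPM for D7Ertd143e. Only 2 mature sequences of 1 hairpin were placed inside the Mir17hg entry.

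**Figure D3:**
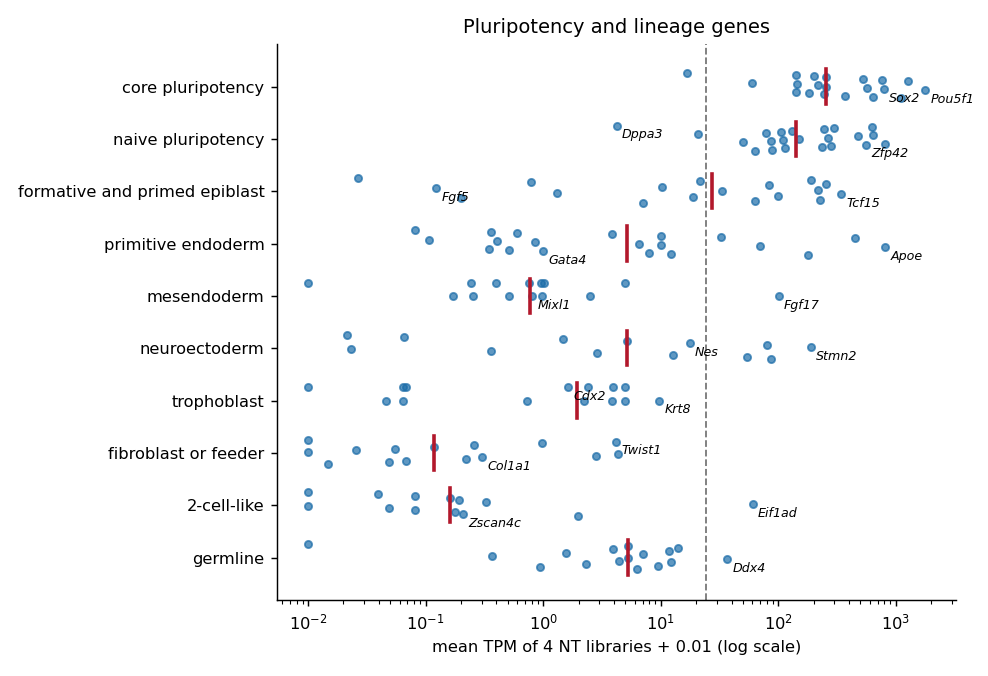
Mean TPM over the 4 NT libraries plus 0.01 (horizontal axis, log scale) of each gene of 10 pluripotency and lineage lists (rows); points are genes, red bars list medians and the dashed line the median of all expressed genes. Core pluripotency genes had a median of 256 TPM and fibroblast or feeder genes one of 0.108 TPM.

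Genes of the formative and primed epiblast, the states that follow the naive one, were mixed. Of 18 genes, 13 were expressed, beside 57.8% of all protein-coding genes, and the median was 27.4 TPM, near that of all expressed genes. The defining early marker Fgf5 had 10 reads over all 4 libraries, and Otx2, a transcription factor of the primed state, stood at 10.2 ± 0.740 TPM (SD, n = 4). In contrast, Tcf15 stood at 345 ± 20.5 TPM, the Nodal pathway genes Lefty1 and Lefty2, secreted Nodal antagonists, at 225 ± 30.8 and 253 ± 33.8 TPM, and Nodal itself at 83.9 ± 5.46 TPM. The ETS factors Etv4 and Etv5, which answer to Fgf signalling, stood at 191 ± 12.6 and 218 ± 6.82 TPM. Several of these genes are also active in naive cells grown in serum and LIF. The Fgf pathway gave further high levels in Fgf4, the ligand, at 150.2 ± 9.58 TPM, and in the feedback genes Spry2 at 399.8 ± 35.5 TPM and Dusp6 at 195 ± 15.3 TPM, whereas the immediate early gene Fos stood at 5.25 ± 0.380 TPM.

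Lists of other lineages mixed genes with few reads and genes at high levels. Their counts of expressed members are to be read beside the shares over the whole table. These were 50.4% of all genes and 57.8% of protein-coding genes, so a list near them is not set apart by its count. Of 20 primitive endoderm genes, 11 were expressed, with a median of 5.21 TPM, and 1 had fewer than 10 reads over the 4 libraries. In this list the transcription factors Gata4 (0.985 ± 0.450 TPM), Gata6 (0.592 ± 0.134 TPM) and Sox17 (0.0976 ± 0.110 TPM, or 0.172 TPM with GENCODE lengths) were not called expressed, and the receptor Pdgfra stood at 0.391 ± 0.0860 TPM, while Sox7, another transcription factor of the list, was expressed at 10.1 ± 2.73 TPM. The list held 0.160% of TPM mostly through the lipid carrier Apoe (806 ± 56.5 TPM), the laminin chain Lamc1 (453 ± 38.2 TPM) and the matrix protein Sparc (180.0 ± 22.2 TPM). Of 14 mesendoderm genes 3 were expressed, and the list median was 0.768 TPM, with Mixl1 at 0.793 ± 0.245 TPM, while the growth factor Fgf17 reached 98.7, 97.9, 99.7 and 106 TPM. Eomes rested on 655 reads in all, at 3.39, 2.92, 5.44 and 8.08 TPM.

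Of 13 neuroectoderm genes, 9 were expressed and 3 had fewer than 10 reads. Their high members were Stmn2, a microtubule regulator of neurons, at 161, 192, 198 and 201 TPM, the neuronal tubulin Tubb3 at 87.5 ± 6.86 TPM and the neural plate factor Sox1 at 75.8, 85.4, 74.2 and 84.4 TPM. Pax6 stood at 2.85 ± 0.634 TPM (4.91 TPM with GENCODE lengths), and the proneural factor Neurog2 had 1 read over all 4 libraries. Nes, an intermediate filament of neural progenitors, stood at 11.1, 7.62, 24.8 and 27.0 TPM, with replicates 3 and 4 above replicates 1 and 2. Of 14 trophoblast genes 6 were expressed, at most at 9.64 TPM (the keratin Krt8), and Cdx2 stood at 1.62 ± 0.817 TPM.

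Fibroblast or feeder genes, which would mark cells other than stem cells in the dish, had 3 of 15 members expressed and at most 4.29 TPM. Their summed level was 0.00106%, 0.00105%, 0.00154% and 0.00164% of TPM in replicates 1 to 4, with Col1a1 at 0.291 ± 0.128 TPM. Of 13 genes listed for the 2-cell-like state, 7 had fewer than 10 reads and 2 were expressed, Eif1ad and Usp17la. Usp17la stood at 1.97 ± 0.402 TPM. Eif1ad, at 60.5 ± 1.57 TPM, made up most of the 63.7 TPM summed over the list. Whether Eif1ad marks the 2-cell-like state in these cells was not tested. Zscan4c had 16 reads in all and Zscan4f 11, and as members of multigene families the Zscan4 and Usp17l genes have uncertain counts. Of 16 germline genes 13 were expressed at low levels, led by Ddx4, a germ cell RNA helicase, at 37.4, 33.4, 40.9 and 34.1 TPM. Of 21 interferon-response genes 11 were expressed, a share near the 50.4% of all genes, led by Bst2, a virus-tethering membrane protein, at 34.6 ± 3.72 TPM. Their median of 1.59 TPM lay close to that of all genes in the table (1.89 TPM), and Ifit1 rested on 6 reads. The 6 Y-linked genes listed each had fewer than 10 reads although E14 is known as a male line, and Xist, the RNA that coats the inactive X chromosome, stood at 11.7 ± 1.40 TPM beside its antisense partner Tsix at 12.0 ± 1.22 TPM. Xist and Tsix share exon bases, and whether the counting used strand is not stated, so these levels are uncertain. A reason for the low Y-linked counts was not tested.

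Genes of the dividing cell were expressed throughout under the inhibitor. All 34 replication genes and all 33 mitosis genes were expressed, with medians of 109 and 116 TPM, above the median of all expressed genes. The replicative helicase subunit Mcm7 stood at 548, 567, 534 and 516 TPM and the sliding clamp Pcna at 558, 583, 506 and 512 TPM. The licensing factor Cdt1 stood at 245 ± 13.3 TPM and its inhibitor geminin (Gmnn) at 132 ± 7.79 TPM. The topoisomerase Top2a stood at 455 ± 16.5 TPM, the proliferation antigen Mki67 at 163, 173, 174 and 201 TPM, the mitotic kinase Plk1 at 175 ± 10.3 TPM and Cdc20, an activator of mitotic exit, at 333 ± 7.34 TPM (SD, n = 4). Replication-dependent histones, whose usual transcripts lack a polyA tail, held 0.0213% of TPM, while replacement histones, led by H2afz at 1310.3 ± 105 TPM, held 0.703%.

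Among cyclins, the regulatory subunits of the cell cycle kinases, 9 of 11 were expressed. Ccnb1, of mitosis, stood at 344, 355, 309 and 291 TPM, and Ccna2, of S phase and G2, at 140.1, 144, 136 and 138 TPM. Of the D-type cyclins, which link growth signals to G1, Ccnd3 stood at 296, 288, 282 and 287 TPM, Ccnd1 at 142, 149, 149.8 and 139 TPM and Ccnd2 at 35.4, 42.3, 48.5 and 38.9 TPM, and this order held in all 4 libraries. Ccne1, which drives entry into S phase, stood at 119 ± 7.28 TPM and Ccne2 at 10.1 ± 1.31 TPM (SD, n = 4). Of the kinases, Cdk4 was 4.15 ± 0.12 above Cdk6 on the log2 scale of TPM, at 611 ± 45.4 against 34.4 ± 2.24 TPM. With GENCODE lengths this log2 difference was 5.04, with Cdk4 at 401 and Cdk6 at 12.2 TPM. Cdk1 stood at 109.9 ± 8.03 and Cdk2 at 75.5 ± 1.95 TPM.

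Inhibitors of these kinases were uneven. Cdkn1c, the imprinted inhibitor p57, was the highest in mean level and one of the most variable genes of all, at 214, 238, 84.4 and 82.6 TPM. Replicates 1 and 2 lay above replicates 3 and 4 without overlap, and on the TMM-scaled CPM scale the highest library was 2.91-fold above the lowest. Cdkn1b, the inhibitor p27, stood at 58.5, 61.6, 71.6 and 68.7 TPM and Cdkn1a, the p53 target p21, at 17.5, 16.8, 23.6 and 24.95 TPM. Both were higher in replicates 3 and 4, where Cdkn1c was lower. The share of all genes that split the replicates in either direction was not computed, so these splits are not read as a joint pattern. Of the INK4 family, which act on Cdk4 and Cdk6, Cdkn2a had 35 reads, Cdkn2b 15 and Cdkn2c 48 in all 4 libraries, and Cdkn2d stood at 15.4 ± 0.993 TPM. The retinoblastoma protein gene Rb1 stood at 11.2, 12.0, 16.3 and 16.5 TPM, E2f1 at 39.0 ± 1.62 TPM and E2f4 at 223 ± 12.0 TPM. Trp53 was high at 722 ± 35.4 TPM, and its target Mdm2 stood at 87.5 ± 9.16 TPM.

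**Figure D4:**
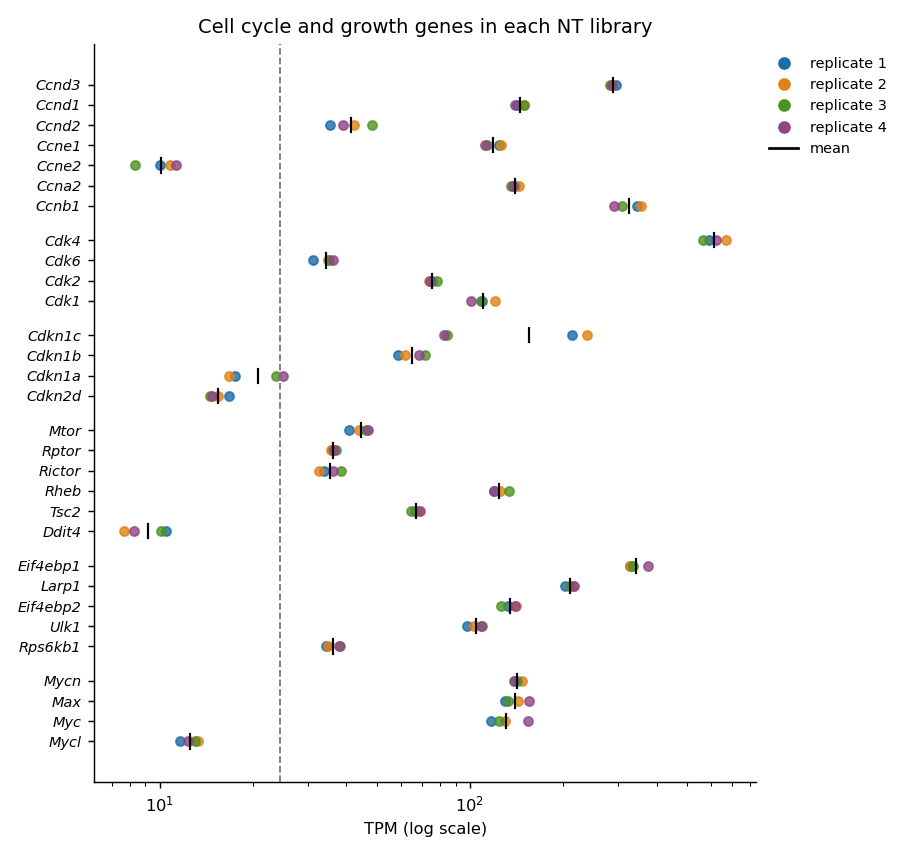
TPM in each of the 4 NT libraries (horizontal axis, log scale; colours are replicates, black bars means) of cyclins, cell cycle kinases, their inhibitors, mTOR pathway genes, mTORC1 substrates and MYC family genes (rows); the dashed line is the median of all expressed genes. Cdkn1c is split between 238 TPM in replicate 2 and 82.6 TPM in replicate 4, while Ccnd3 lies between 282 and 296 TPM.

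The target of the inhibitor and its partners were at middle levels. All 9 listed subunits of the mTOR complexes were expressed, with a median of 31.5 TPM and none at 100 TPM. Mtor stood at 40.6, 43.9, 46.2 and 46.9 TPM, Rptor, the scaffold of mTORC1, at 35.8, 35.7, 36.9 and 36.4 TPM and Rictor, that of mTORC2, at 33.8, 32.7, 38.5 and 36.2 TPM. Mlst8, shared by both complexes, stood at 10.5 ± 0.707 TPM, and the inhibitory subunits Akt1s1 and Deptor stood at 49.0 ± 3.20 and 22.3 ± 1.18 TPM (SD, n = 4). Upstream, the activating GTPase Rheb stood at 124 ± 6.61 TPM and its inhibitors Tsc1 and Tsc2 at 20.4 ± 0.828 and 67.0 ± 1.91 TPM. The GTPases Rraga and Rragc, which carry the amino acid signal, stood at 102 ± 4.79 and 58.4 ± 1.79 TPM. Ddit4, a stress-induced brake on mTORC1, was low at 10.5, 7.68, 10.1 and 8.26 TPM, and the leucine sensor Sesn2 stood at 37.7 ± 1.09 TPM.

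Of the direct substrates, Eif4ebp1, a repressor of cap-dependent translation, stood at 329, 327, 336 and 376 TPM. It was above Eif4ebp2 (135 ± 7.08 TPM) by 1.34 ± 0.10 on the log2 scale (SD, n = 4), in all 4 libraries. The factor that both bind, Eif4e, stood at 145 ± 5.33 TPM. Larp1, which binds the pyrimidine tract of ribosomal protein transcripts, stood at 202, 215, 209 and 216 TPM, the S6 kinases Rps6kb1 and Rps6kb2 at 36.3 ± 1.95 and 24.8 ± 1.92 TPM, the autophagy kinase Ulk1 at 105 ± 5.204 TPM, and the lysosomal transcription factors Tfe3 and Tfeb at 78.9 ± 4.21 and 38.9 ± 1.78 TPM. With GENCODE lengths Eif4ebp1 was at 168 TPM, Eif4ebp2 at 67.0 TPM, Eif4e at 83.7 TPM and Rps6kb2 at 8.07 TPM, and the log2 ratio of the repressors was 1.33. The substrate list held 0.123% of TPM.

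Of the MYC family, Mycn stood at 139, 147, 142 and 138 TPM and Myc at 117, 129.6, 124 and 154 TPM. They were not separable: Mycn was the higher in 3 of 4 libraries, and the log2 ratio was 0.12 ± 0.18 (SD, n = 4). With GENCODE lengths Myc was at 231 TPM, and the ratio turned to -0.70. Mycl was lower at 11.6, 13.2, 13.0 and 12.3 TPM. Their shared partner Max stood at 129.6, 142, 133 and 155 TPM, close to Mycn, and the opposing partners Mnt and Mxd1 stood at 48.8 ± 2.73 and 5.61 ± 0.508 TPM. Mga, which binds Max in a repressor complex that silences germline genes, stood at 96.6 ± 3.89 TPM.

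The translation and ribosome assembly machinery was at high levels. Of 47 translation factor genes, 46 were expressed and 38 were at 100 TPM or more, holding 4.03% ± 0.0886 of TPM (SD, n = 4). Eef2, the translocation factor, stood at 2819 ± 117 TPM, Eif4a1, the initiation helicase, at 2342 ± 99.1 TPM, Eif4g1, its scaffold, at 465 ± 5.71 TPM, and Pabpc1, which binds polyA tails, at 1763 ± 30.03 TPM. All 54 ribosome biogenesis genes were expressed, with a median of 159 TPM. Npm1 stood at 3789, 4235, 3612 and 4118 TPM, the nucleolar proteins Ncl at 1120.1 ± 38.2 TPM and Nop58 at 861 ± 69.0 TPM, and fibrillarin (Fbl), which methylates ribosomal RNA, at 537 ± 17.2 TPM. Of RNA polymerase I, Polr1a stood at 103 ± 4.22 TPM (68.5 TPM with GENCODE lengths) and Polr1b at 92.6 ± 0.486 TPM, and its initiation factor Rrn3, a point of mTOR control, at 213 ± 15.1 TPM. For RNA polymerase II the largest subunit Polr2a stood at 286 ± 14.8 TPM, and the kinase of pause release Cdk9 at 52.99 ± 1.48 TPM beside its inhibitor Hexim1 at 73.4 ± 3.63 TPM. Their order turned with GENCODE lengths, to 104 TPM for Cdk9 and 71.5 TPM for Hexim1.

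Nutrient and stress genes varied between members of the same list. In the amino acid response, the transcription factor Atf4 stood at 246, 245, 272 and 279 TPM and its target Asns, asparagine synthetase, at 157 ± 8.78 TPM, yet the targets Ddit3 (16.4 ± 3.91 TPM), Trib3 (5.89 ± 1.31 TPM) and Chac1 (2.55 ± 0.366 TPM) were below the median of expressed genes, and the cystine carrier Slc7a11 had 39 reads in all. The leucine carrier chains Slc7a5 and Slc3a2 stood at 123 ± 13.5 and 157 ± 10.2 TPM. Psat1, of serine synthesis, was lower in replicates 3 and 4, at 93.0, 95.6, 65.3 and 60.05 TPM. Of 41 lysosome and autophagy genes 40 were expressed, among them the lysosomal membrane protein Lamp1 at 396 ± 11.6 TPM, the proteases Ctsl and Ctsd at 263 ± 13.9 and 210.4 ± 5.17 TPM, the autophagosome protein Map1lc3b at 193, 191, 189 and 192 TPM and the autophagy receptor Sqstm1 at 117 ± 5.62 TPM. With GENCODE lengths Ddit3 was at 28.8 TPM, above the median of expressed genes on the deposited lengths (24.4 TPM). Its place against that median thus depends on the length. On the same GENCODE scale Slc3a2 was at 257 TPM and Ctsl at 127 TPM.

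All 30 genes of sterol and fatty acid synthesis were expressed. Fasn, the fatty acid synthase, stood at 184, 199, 183 and 185 TPM. The desaturases split the replicates: Scd2 stood at 129, 139, 79.3 and 85.1 TPM and Scd1 at 20.2, 19.7, 7.38 and 7.05 TPM, both higher in replicates 1 and 2. In glucose breakdown, Gapdh stood at 2864, 3293, 2712 and 3409.6 TPM, the pyruvate kinase Pkm at 1403 ± 108 TPM and the transporter Slc2a3 at 871 ± 31.7 TPM, above Slc2a1 (247 ± 18.2 TPM) in all 4 libraries. Hk2 was above Hk1, the hexokinases of the first step, by 4.12 ± 0.16 on the log2 scale of TPM. Ldhb was above Ldha, the lactate dehydrogenase chains, in all 4 libraries on the deposited lengths, and the log2 ratio of Ldha to Ldhb ranged from -0.17 in replicate 1 to -1.03 in replicate 4. With GENCODE lengths Ldha was the higher in 1 of 4 libraries, and per read in 2 of 4. All 56 nuclear genes of the respiratory chain were expressed, with a median of 202 TPM and a summed level of 1.53% ± 0.0552 of TPM (SD, n = 4), led by Atp5b, of the ATP synthase, at 1749 ± 66.9 TPM. Mitochondrially encoded genes were not analysed here.

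The machinery of the m6A mark, which the fusion protein removes, was expressed throughout. All 11 writers found in the table were expressed, with a median of 44.5 TPM. The catalytic subunit Mettl3 stood at 49.7, 53.6, 49.9 and 55.4 TPM and its partner Mettl14 at 37.0, 37.0, 36.4 and 37.6 TPM. Alkbh5 stood at 43.5, 42.2, 43.0 and 41.2 TPM and the other eraser, Fto, at 69.8, 67.9, 64.1 and 68.0 TPM, so Fto was the higher per length in all 4 libraries, with a log2 ratio of Alkbh5 to Fto of -0.67 ± 0.06 (SD, n = 4). Per read the order turned, with a log2 ratio of 0.09. Alkbh5 reads may include those of the fusion gene. The 13 readers were all expressed and higher as a list, with a median of 90.2 TPM and 5 at 100 TPM or more, led by the RNA-binding protein Hnrnpa2b1 at 1216 ± 92.4 TPM. Of the cytosolic readers, Ythdf1 stood at 152 ± 5.17 TPM, Ythdf3 at 98.4 ± 2.71 TPM and Ythdf2, which promotes decay of marked RNA, at 80.6 ± 3.37 TPM. The nuclear reader Ythdc1 stood at 169 ± 8.27 TPM and Igf2bp1, a reader of the insulin-like growth factor mRNA-binding family, at 214 ± 10.7 TPM.

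Genes of DNA methylation and of the Polycomb complexes were mostly expressed, 8 of 9 and 18 of 19. The DNA demethylase Tet1 stood at 263 ± 7.13 TPM, Tet2 at 131 ± 5.44 TPM, the maintenance methyltransferase Dnmt1 at 177 ± 5.16 TPM and the catalytically inactive cofactor Dnmt3l at 240.4 ± 19.8 TPM. Dnmt3b was above Dnmt3a (27.8, 38.4, 32.4 and 35.2 TPM) per length by 0.78 ± 0.48 on the log2 scale, a spread that comes from replicates 3 and 4, where Dnmt3b was low. Per read the log2 ratio was -0.42, since the deposited Dnmt3a exon length is the longer. Of the Polycomb repressors, Ezh2 stood at 198 ± 6.29 TPM against 15.1 ± 1.03 TPM for Ezh1, with Eed at 232 ± 8.91 TPM and Suz12 at 159.5 ± 6.46 TPM. Among imprinted genes H19 and Igf2 were low at 2.80 ± 0.756 and 2.32 ± 0.320 TPM, whereas Peg3 stood at 142 ± 19.5 TPM. Of long noncoding RNAs, Malat1, a nuclear transcript, led with 1536, 1379, 1285 and 1625 TPM. With GENCODE lengths Dnmt3l was at 374 TPM and Igf2 at 3.64 TPM.

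Some genes of abundant proteins had few or no reads. Rpl26 and Atp6v0c, a subunit of the lysosomal proton pump, had 0 reads in all 4 libraries, Rpl30 had 29 reads in all, Rpl34 71, Rps27 123, and Eno1, the enolase of glycolysis, 39. Each of these shares exon bases on its own strand with another entry of the table, for Rpl26 95.8% with Gm15772 and for Atp6v0c 97.0% with Atp6v0c-ps2, and those partners had 0 reads too. Eno1 shares 92.8% of its exon bases with Eno1b, which had 220 reads. Over the 238 protein-coding genes with at least 90% of exon bases shared in this way, 93.3% had 0 reads, against 17.4% of the 17285 with no shared base. The levels of such genes are therefore uncertain, as are Tdg, Snrpn and Hmga1 among the genes listed here. Of 1040 genes in the lists, 17 shared at least 50% of their exon bases with another entry.

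The 4 libraries agreed closely in most genes. Over genes with at least 10 reads in the mean library, the common biological coefficient of variation estimated by edgeR was 7.74% (13976 genes), against 2.23% for the ERCC RNAs (54 RNAs), whose spread holds no biological part. Genes with 10 to 100 reads had a median coefficient of variation of 18.5%, nearly that of ERCC RNAs at the same reads (18.8%), whereas genes with 10000 reads or more stood at 5.13% against 1.59%. Of 7069 genes with a mean of at least 20 CPM, 107 (1.51%) differed by 1.5-fold or more between the highest and the lowest library. Between library pairs, the number of genes at least 1.5-fold apart was 2 for replicates 3 and 4 and 9 for replicates 1 and 2. It was 35 to 68 for the other 4 pairs. The median absolute log2 difference over all these genes did not set replicates 3 and 4 apart. It was 0.0839 for that pair, 0.0835 for replicates 1 and 3 and 0.0597 for replicates 1 and 2. The counts of every pair differed by more than sampling noise. The chi-square per degree of freedom ran from 11.5 (replicates 2 and 3) to 30.7 (replicates 1 and 2). No library was thus a copy of another. This does not show that they came from separate cultures.

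The 15 genes with the largest spread were Flnc, Nes, Scd1, Cdkn1c, Phlda1, Synpo2l, Specc1, Ptrf, Sfn, Lars2, Cyr61, Nab2, Myo1c, Plk2 and Abca1. Flnc, a filamin that crosslinks actin, had TMM-scaled levels of 37.8, 26.0, 115 and 119 CPM in replicates 1 to 4, a 4.59-fold range. Ptrf, a caveolar coat protein also called cavin-1, had 114, 72.6, 215 and 191 CPM, and Cyr61, a secreted matrix protein known as a YAP target, 40.5, 33.1, 68.3 and 79.7 CPM. Myo1c, an unconventional myosin, had 109.9, 84.8, 179 and 193 CPM and Sfn, a 14-3-3 protein, 40.6, 31.5, 76.2 and 76.0 CPM. Of the 15, 12 were higher in both replicates 3 and 4 than in either of replicates 1 and 2, and 13 were lowest in replicate 2. Because the 15 were picked for their spread over these same libraries, these counts describe them alone. The share of all 7069 genes with replicates 3 and 4 both above replicates 1 and 2 was not computed. Scd1 (38.3, 36.4, 13.5 and 12.9 CPM) and Cdkn1c (162, 177, 62.1 and 60.6 CPM) ran the other way. Over all 7069 genes at this level, 24.9% were lowest in replicate 2. Why replicates 3 and 4 differed from replicates 1 and 2 in most of the 15 genes was not tested.

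**Figure D5:**
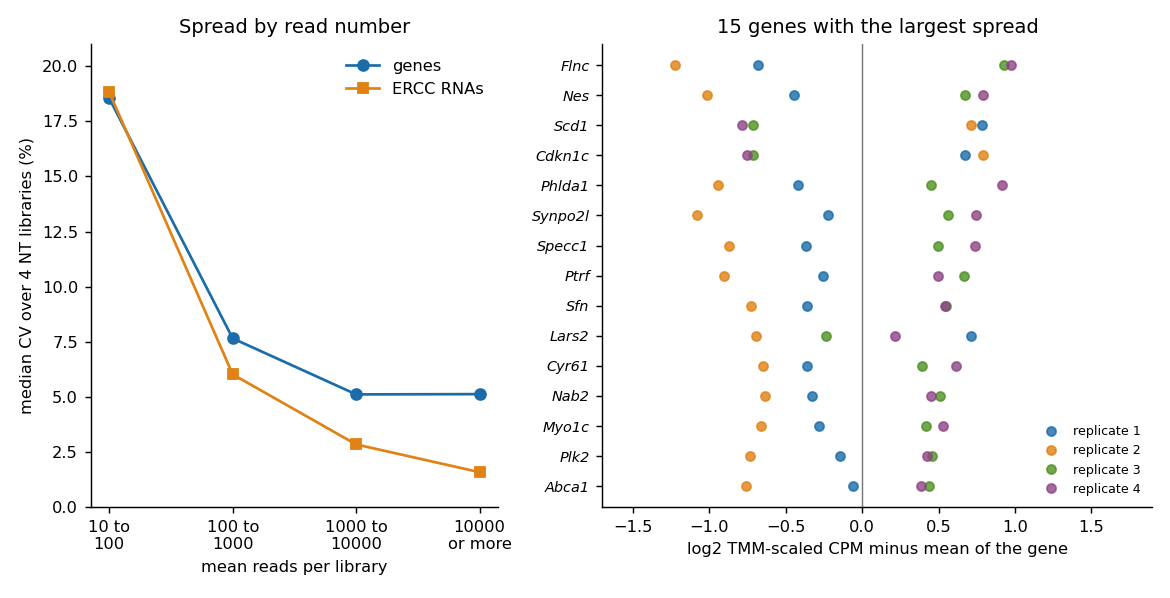
Left, median coefficient of variation over the 4 NT libraries (vertical axis, percent) of genes and ERCC RNAs by mean reads per library; right, log2 TMM-scaled CPM of each library (colours) minus the mean of the gene for the 15 genes with the largest spread. Above 10000 reads genes stay at 5.13% while ERCC RNAs fall to 1.59%, and Flnc spans a 4.59-fold range.

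The 10 genes with the smallest spread were Eif3a, Yeats2, Ppp3cb, Setdb1, Spg20, Xpo5, Foxred2, 1810022K09Rik, Yy1 and Gtf2a1. Eif3a, the scaffold of an initiation factor complex, had 960.2, 959, 964 and 961 CPM in the 4 libraries, and Setdb1, a histone H3 lysine methyltransferase that works with Trim28, 192, 193, 192 and 193 CPM. Yy1, a broadly expressed transcription factor, had 103, 103, 104 and 104 CPM. These genes were picked from 7069 for their small spread, so the values describe these libraries and do not mark stable genes. Spg20, at 543 to 620 reads per library, had a coefficient of variation of 1.52% in TPM. That is below the median of 6.02% for ERCC RNAs with 100 to 1000 reads. Whether so small a spread would recur was not tested.

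The RNA output of the cells was read against the added ERCC RNAs. Endogenous reads per ERCC read were 61.3, 72.1, 65.1 and 63.4 in replicates 1 to 4, 65.5 ± 4.66 on average (SD, n = 4). Replicate 2 was the highest and also had the lowest share of Rn45s reads. Because ERCC RNAs went into RNA already extracted, unequal cell numbers or RNA yields would enter this ratio.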

How the data were processed

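PolyA RNA of 4 NT libraries was analysed from the deposited table of raw read counts per gene (24421 genes, 92 ERCC RNAs). Per the submitters' processing notes, the authors trimmed reads with Trim Galore 0.4.0, counted them with featureCounts of Subread 1.5.0 on mm10 and used edgeR 3.32.1; which aligner, annotation release and strand setting applied is not given in those sources. Exon lengths are the other deposited values used. No row lacks a gene name. A second deposited table of log2 values was not used.

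CPM and TPM were computed over endogenous genes in Python 3.11.15. In R 4.3.3, edgeR 4.0.16 gave TMM factors and dispersions (intercept only), and DESeq2 1.42.0 an alternative. With 1 group there is no comparison and no p-value: an exact sign-flip test on 4 libraries could not reach 0.05. Other alternatives changed scaling, minimum counts, lengths, Rn45s and replicates. The dispersion step was tested on simulated data.

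Members and the 48 gene lists were chosen with earlier results of these data known. Named genes were the 30 highest by TPM, list members, and the 15 most and 10 least variable genes at 20 CPM or more; some are not reported here. Promoter and microRNA sequences are from RefSeq, GRCm38.p6. Precision is that of 4 libraries of 21822509 to 25069479 reads, and reads carry no molecular identifiers.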

Additional observations from a re-analysis of the deposited data

Results flagged for a closer look

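The values of the report and of its marker genes were checked for 1 library that stood far from the others, by comparing its gap to the nearest library with the whole range. Of 333 values, 11 met the criterion (3.30%), and chance alone flags about 1 in 20. Replicate 1 lay below the other libraries for Ldhb (284 TPM against 344 to 347 TPM), Ctsl (242 TPM against 268 to 272 TPM) and Tcf15 (314 TPM against 353 to 357 TPM). Replicate 2 lay above them for Fasn (199 TPM against 183 to 185 TPM), Dnmt1 (185 TPM against 174 to 175 TPM) and Pdgfra (0.519 TPM against 0.340 to 0.360 TPM), and below them for Fos (4.68 TPM). Replicate 3 was the low one for Akt1s1 (44.3 TPM), and replicate 4 for Rps4x (3251 TPM against 3742 to 3805 TPM) and for Hmga1 (3.12 TPM), whose level is uncertain because its exons overlap another entry. The mean of Hmga1 was 4.24 TPM, or 6.62 TPM with GENCODE lengths. Neurog2 (0.0523 TPM in replicate 4) rests on 1 read.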

How the results depend on the processing

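No paired analysis was possible because the results come from 1 group and from no test. The share of TPM in the 10, 100 and 1000 highest genes was 7.22%, 30.1% and 59.8% without Rn45s, and as percent of reads 14.3%, 25.5% and 56.3%. The ribosomal protein share was 19.5% without Rn45s, 16.9% with GENCODE transcript lengths and 5.65% of reads. Sox2 stood at 940.2 TPM with GENCODE lengths and Nanog at 593 TPM without Rn45s. Leaving out Rn45s and using GENCODE lengths were chosen after seeing the data. GENCODE lengths moved 98 of 263 gene levels by more than 1 SD between libraries, and 28 of the 249 named in the report by over 1.5-fold, from Rps6kb2 (down to 8.07 TPM) to Mrgpra6 (up to 5824 TPM).

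The log2 ratio turned to -0.70 for Mycn over Myc with GENCODE lengths, and per read to -0.42 for Dnmt3b over Dnmt3a and 0.0931 for Alkbh5 over Fto. These 3 turns follow from the lengths, which are all that the alternatives change. Of 20 pairs of family members, the first named was higher in every library in 13, and in 13 to 14 with 1 library left out.

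The coefficient of variation between replicates was 8.21% with library totals, 12.4% with ERCC totals and 8.57% as the median per gene from DESeq2, a different summary. With each library left out in turn it ran from 7.31% to 8.24%, the cause not being tested. With the run allowed within 10 bases of the start, 55.6% of ribosomal protein windows held it. The count of expressed genes stayed between 12315 and 16360 over its minimums and scalings. The alternative without mitochondrially encoded genes was not run, because none of the listed symbols matched. Of 2836 alternative values, 2510 moved by less than 1 SD between libraries or, for counts, by less than 1.5-fold. Depth limits genes below 10 reads over all libraries, 8436 in number, whose levels are not separable from each other.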

Other observations

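Protein turnover and structure genes not described above were also at high levels. All 29 listed proteasome and ubiquitin genes were expressed, with a median of 262 TPM and levels from 70.9 to 439.6 TPM, and their summed level was 0.749% ± 0.0205 of TPM (SD, n = 4). The epithelial adhesion genes Cdh1 and Epcam stood at 133 ± 7.65 and 118 ± 5.31 TPM. Vim, an intermediate filament of mesenchymal and many cultured cells, stood at 215, 172, 284 and 298 TPM in replicates 1 to 4, higher in replicates 3 and 4. Hspa5, the chaperone of the endoplasmic reticulum, stood at 351, 405, 609 and 547 TPM and was likewise higher in replicates 3 and 4.

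Entries shorter than 200 bases, 1291 in number and mostly microRNA and small nucleolar RNA genes, took 0.912% of TPM. Their levels from a polyA library are uncertain. Between library pairs the Pearson correlation of log2 TMM-scaled CPM across genes ran from 0.990 to 0.996, with genes not being independent replicates.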
